A study of Arabidopsis thaliana with 6 samples.

Results

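The genes described here make glutathione, remove peroxides, or use NADPH to keep glutathione and protein thiols reduced. They were chosen by gene identifier and are 10 of the 33557 genes in the tables. They are the glutathione synthesis genes *GSH1* and *GSH2*, the glutathione reductase genes *GR1* and *GR2*, the ascorbate peroxidase gene *APX1*, the catalase genes *CAT1*, *CAT2* and *CAT3*, and the thioredoxin reductase genes *NTRA* and *NTRB*. All 10 were found in the tables and passed the filter of a mean of at least 1 FPKM (read fragments scaled to transcript length and to library size) over the 6 libraries.

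Roots of 10-day-old *Arabidopsis thaliana* plants were compared between the wild type (WT, Col ecotype) and plants that overexpress *CEPDL2* (*CEPDL2ox*). In *CEPDL2ox* the *CEPDL2* open reading frame is driven by the cauliflower mosaic virus 35S promoter, which is active in most tissues. Both groups were grown on 10 mM nitrate as the only nitrogen source, and each was sequenced in 3 libraries. The labels do not say which transgenic line was used or whether a library pools several plants. They also do not say that replicates came from separate cultures. The paper describes 3 or more independent biological replicates per experiment, without saying whether the 3 libraries of a group are such replicates. The p-values therefore measure the spread between these libraries.

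*CEPDL2* encodes a polypeptide placed in the plant-specific class III glutaredoxins, a family named for its relation to enzymes that use glutathione as their reductant. Glutathione is a tripeptide of glutamate, cysteine and glycine. GSH1 joins glutamate to cysteine in the plastid, the step that limits the rate, and GSH2 adds glycine. Once oxidised, glutathione is returned to its reduced form by glutathione reductases with NADPH. Ascorbate peroxidases reduce hydrogen peroxide with ascorbate, whose regeneration can draw on glutathione, and catalases break down hydrogen peroxide in peroxisomes without a reductant. NTRA and NTRB pass electrons from NADPH to thioredoxins in the cytosol and mitochondria, a route that runs beside the glutathione system.

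The 10 genes include 3 small families, so the stretches in which their members are most alike were examined first, since a 75-base read from such a stretch is the hardest to place. The coding sequences of *NTRA* and *NTRB* matched at 918 of 1116 aligned bases (82.3%). Their most similar 75 bases are shown here, from RefSeq on TAIR10.1 and 5′ to 3′, with the bases that differ in capitals. The *NTRA* stretch is read from exons within chr2:7565401-7566201 and the *NTRB* stretch from exons within chr4:16843253-16843722, both on the plus strand.
NTRA: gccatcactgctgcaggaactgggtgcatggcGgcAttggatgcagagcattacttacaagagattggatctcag
NTRB: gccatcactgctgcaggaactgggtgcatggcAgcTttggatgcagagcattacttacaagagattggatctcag

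Only 2 bases tell the genes apart in that stretch, and the longest run without a difference held 44 bases. Over all annotated transcripts, 1 of 2193 windows of 75 bases in *NTRA* (0.0456%) and 1 of 1717 in *NTRB* (0.0582%) occurred in the other gene with at most 2 mismatches, and none occurred there without a mismatch. In *CAT2*, 21 of 2835 windows (0.741%) occurred without a mismatch in AT4G35080, which lies beside it on the opposite strand (chr4:16698267-16700406, plus strand, TAIR10.1) and overlaps it in RefSeq but not by the positions in the tables. The library kit does not mark the strand, so reads from that overlap cannot be told apart. No window of the other 7 genes was shared with another gene at this tolerance.

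Among the catalases the closest 75 bases are those of *CAT1* and *CAT3*, which differ at 4 positions. They lie in the exons within chr1:7148950-7149114 (*CAT1*) and chr1:7145540-7145699 (*CAT3*), both on the plus strand, and the capitals again mark the differences.
CAT1: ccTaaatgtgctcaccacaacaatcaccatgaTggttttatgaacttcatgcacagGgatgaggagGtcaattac
CAT3: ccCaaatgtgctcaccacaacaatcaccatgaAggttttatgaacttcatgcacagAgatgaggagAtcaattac

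Over the whole coding sequence, *CAT1* matched *CAT2* at 80.3% and *CAT3* at 77.0% of aligned bases, and *CAT2* matched *CAT3* at 76.5%. *CAT3* and *CAT1* are also neighbours on chromosome 1. They are read in the same direction with *CAT3* first, and the positions in the tables leave 95 bases between them (chr1:7146541-7146635, plus strand). That gap is shown because it is all that lies between these neighbouring family members.
gap between CAT3 and CAT1: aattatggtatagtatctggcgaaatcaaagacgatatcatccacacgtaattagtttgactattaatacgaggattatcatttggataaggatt

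The glutathione reductases are far less alike, with 914 of 1446 aligned coding bases identical (63.2%). Their closest 75 bases, shown for contrast, differ at 21 positions, and are read from the minus strand of chr3:8733655-8733815 (*GR1*) and chr3:20232504-20232717 (*GR2*).
GR1: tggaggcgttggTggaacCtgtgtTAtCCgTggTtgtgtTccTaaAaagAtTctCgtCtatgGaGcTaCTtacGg
GR2: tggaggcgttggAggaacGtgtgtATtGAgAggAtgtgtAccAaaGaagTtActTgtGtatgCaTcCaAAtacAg

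The overexpressed gene matched its labels. *CEPDL2* lay between 3.27 and 9.45 FPKM in WT and between 7948 and 8838 FPKM in *CEPDL2ox* libraries. The depth, estimated from the smallest values above 0, ran from 5127000 reads (*CEPDL2ox* replicate 3) to 6262000 reads (WT replicate 2). In all, 19597 genes were tested with limma on log2(FPKM + 1), and 228 were called higher and 83 lower at the study's thresholds, an adjusted p under 0.05 together with a change of over 1 on the log2 scale. These are 1.16% and 0.424% of the genes tested. The paper reports more genes in both directions at these thresholds, and the cause of the difference was not tested. With the adjusted p alone, 1120 genes (5.72%) were called, 728 higher (3.71%) and 392 lower (2.0%). The summed level of 12 markers of root tissue ranged from 351 to 385 FPKM over the libraries. Of the 12, only the root hair expansin gene *EXPA7* was called, higher in *CEPDL2ox* at an adjusted p under 0.05, as were 3.71% of all genes. The median log2 fold change of the 12 was 0.07, beside −0.03 over all genes tested.

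WT replicate 1 stood apart in genes of green tissue. The summed level of 12 markers of leaf photosynthesis was 4405 FPKM in this library, 628 and 506 FPKM in WT replicates 2 and 3, and 413, 511 and 254 FPKM in *CEPDL2ox* replicates 1, 2 and 3. All 12 were highest in WT replicate 1. The same held for all 7 genes of photorespiration, the leaf pathway whose peroxide CAT2 is known to remove, with a summed level of 455 FPKM there against 134 to 159 FPKM in the other WT libraries. The 10 genes did not follow this pattern. WT replicate 1 held between 0.95 (*CAT3*) and 1.06 (*CAT2*, *GSH2* and *GR2*) times the mean of the other WT libraries, whereas for the photorespiration genes this ratio lay between 1.94 (*GLDP1*) and 33.5 (*GOX1*). Of the 10 genes, *GSH2* and *GR2* had their highest value in WT replicate 1, and 0 of 10 were called when that library was left out.

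**Figure D1:**
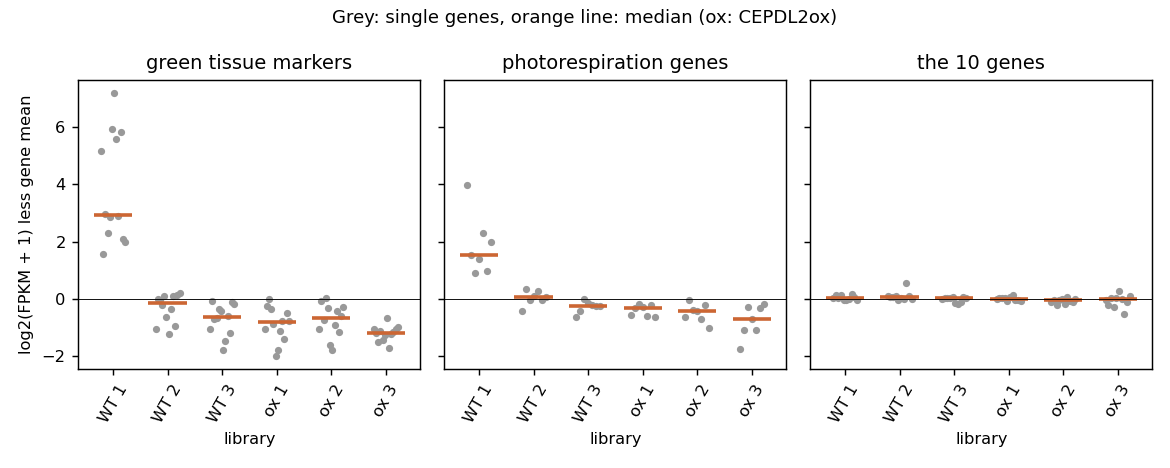
Difference from the gene's own mean over the 6 libraries, in log2(FPKM + 1), for the 12 green tissue markers, the 7 photorespiration genes and the 10 genes described here (grey points, single genes; orange lines, medians; ox, *CEPDL2ox*). The markers and photorespiration genes lie far above 0 in WT replicate 1, while the 10 genes stay near 0 in every library, with *CAT3* at 0.55 in WT replicate 2 and −0.54 in *CEPDL2ox* replicate 3 as their extremes.

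None of the 10 genes was called higher or lower in *CEPDL2ox* roots (0 of 10, with 5.72% of all genes called at an adjusted p under 0.05). At an unadjusted p under 0.05 there were 2 of 10, *CAT3* and *NTRA*, beside 23.1% of all genes tested. The adjusted p-values of limma, with Benjamini-Hochberg adjustment over all genes tested, ranged from 0.14 (*NTRA*) to 0.97 (*APX1*). The log2 fold changes ran from −0.43 (*CAT3*) to 0.13 (*CAT2*), with 7 below 0 and 3 above. The signs for *APX1*, *NTRB*, *GR1* and *CAT1* were not stable, as each turned under at least 1 alternative processing. The median of the 10 was −0.08, beside −0.03 over all genes tested. The median size of the change was 0.12, beside 0.17 over all genes, which were not matched to the 10 for expression level. The 95% confidence interval stayed within a log2 fold change of ±1 for all 10 genes and within ±0.5 for 9, the exception being *CAT3*. The libraries of the groups did not overlap for 3 genes that were lower in *CEPDL2ox* (*GSH2*, *GR2* and *NTRA*, where 16.1% of all genes lay apart in that direction) and for 1 that was higher (*CAT2*, 13.8%), so that 4 of 10 lay apart beside 29.9% of all genes. In whole roots, fewer cells that express a gene and less RNA per cell cannot be told apart. For these 4 the exact two-sided permutation test gave p = 0.10, the smallest it can give with 3 libraries against 3.

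**Figure D2:**
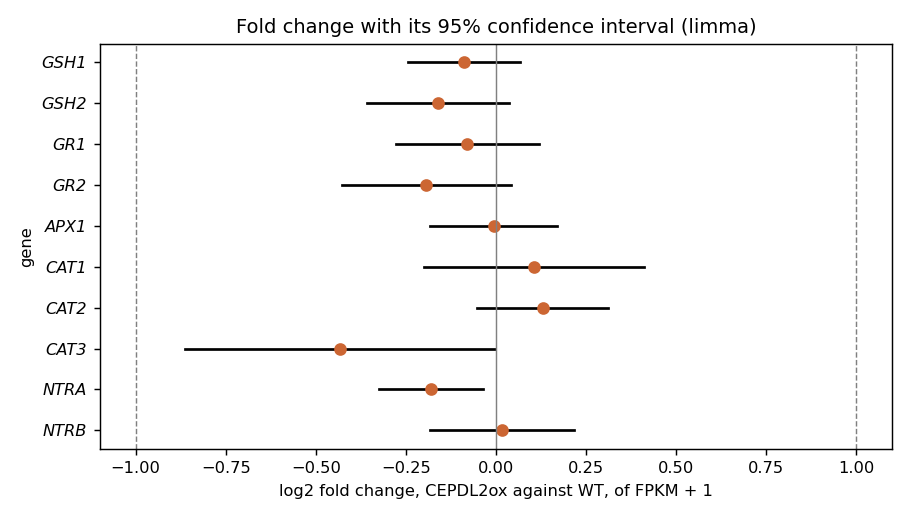
Log2 fold change of FPKM + 1 in *CEPDL2ox* against WT for each gene, with its 95% confidence interval from limma (n = 3 libraries per group); dashed lines mark the study's threshold of 1 in either direction. Every interval lies inside the dashed lines, and those of *CAT3* and *NTRA* end below 0.

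The levels spanned a wide range. In WT the order ran from *APX1* at 1485 FPKM through *CAT3*, *NTRA*, *CAT2*, *GSH1*, *GR1*, *GSH2*, *GR2* and *NTRB* to *CAT1* at 14.7 FPKM. *APX1* stood at 4.16 times the level of *CAT3*, the next gene. *CAT3* and *NTRA* were the only neighbours in this order whose WT libraries overlapped, so that their order is not resolved. Those of *GSH1* and *GR1* almost met, with the nearest WT libraries at 134.8 and 134.6 FPKM. In *CEPDL2ox* the order of *CAT3* and *NTRA* was again unresolved, and so were those of *CAT3* and *CAT2* and of *GSH1* and *GR1*.

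**Figure D3:**
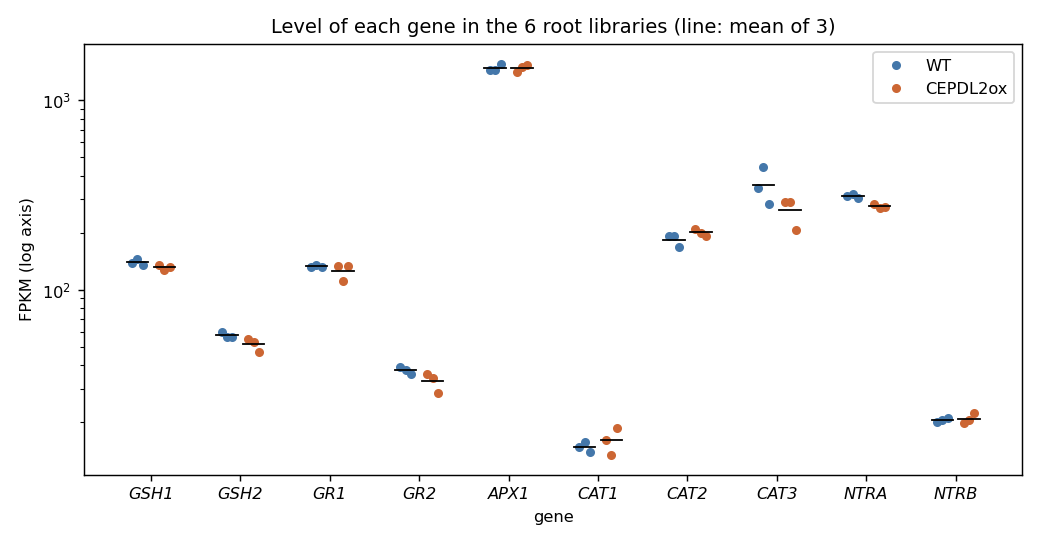
FPKM of each gene in the 6 root libraries on a log axis (blue points, WT; orange points, *CEPDL2ox*; lines, means of 3 libraries). *APX1* is at 1411 FPKM or more in every library and *CAT1* and *NTRB* at 22.1 FPKM or less, and the difference between genes is far larger than that between groups.

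Both steps of glutathione synthesis were examined first. *GSH1* (AT4G23100, chr4:12102135-12107460, TAIR10) measured 138, 145 and 135 FPKM in WT and 135, 127 and 131 FPKM in *CEPDL2ox* replicates 1, 2 and 3. The groups met near 135 FPKM and overlapped. The means were 139 ± 5.26 and 131 ± 4.35 FPKM (SD, n = 3), and the log2 fold change was −0.09 (95% confidence interval −0.25 to 0.07, adjusted p = 0.47 by limma).

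*GSH2* (AT5G27380, chr5:9667971-9670962) measured 59.8, 56.2 and 56.2 FPKM in WT and 54.9, 52.6 and 46.5 FPKM in *CEPDL2ox*. Every *CEPDL2ox* library was below every WT library, with a gap narrower than the range within *CEPDL2ox*. The mean was 10.5% lower (57.4 ± 2.05 against 51.4 ± 4.35 FPKM), with a log2 fold change of −0.16 (−0.36 to 0.04, adjusted p = 0.30 by limma). Without *CEPDL2ox* replicate 3, the lowest library, the log2 fold change was −0.09.

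The reductases that regenerate glutathione differed more from each other than between groups. *GR1* (AT3G24170, listed as *ATGR1*, chr3:8729510-8734562) encodes the cytosolic and peroxisomal enzyme. It measured 131, 135 and 132 FPKM in WT and 133, 112 and 134 FPKM in *CEPDL2ox*. All libraries but *CEPDL2ox* replicate 2 lay within a narrow band. The means were 133 ± 1.71 and 126 ± 12.5 FPKM, and the log2 fold change of −0.08 (−0.28 to 0.12, adjusted p = 0.62 by limma) became 0.0050 without that library.

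*GR2* (AT3G54660, listed as *EMB2360*, chr3:20229744-20233182) encodes the enzyme of plastids and mitochondria. It measured 38.8, 37.6 and 35.9 FPKM in WT and 35.7, 34.1 and 28.4 FPKM in *CEPDL2ox*. The groups did not overlap, although the nearest libraries, at 35.9 and 35.7 FPKM, almost met. The mean was 12.5% lower (37.4 ± 1.48 against 32.7 ± 3.81 FPKM), with a log2 fold change of −0.19 (−0.43 to 0.04, adjusted p = 0.30 by limma) that was −0.098 without *CEPDL2ox* replicate 3. *GR1* supplied between 76.6% and 82.4% of the summed glutathione reductase level in all 6 libraries.

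*APX1* (AT1G07890, chr1:2437330-2439665) encodes the cytosolic ascorbate peroxidase and was the most abundant of the 10 transcripts. It measured 1452, 1441 and 1562 FPKM in WT and 1411, 1495 and 1528 FPKM in *CEPDL2ox*. The groups overlapped. The means were 1485 ± 66.8 and 1478 ± 60.2 FPKM, 0.453% apart, and the log2 fold change was −0.01 (−0.18 to 0.17, adjusted p = 0.97 by limma). The sign of this value turned to 0.01 when libraries were scaled by the median of ratios, so no direction is given.

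None of the catalase genes was called, and whether their changes differed from each other was not tested. *CAT2* (AT4G35090, chr4:16700342-16703325), known as the main catalase of leaves, measured 191, 191 and 168 FPKM in WT and 209, 199.6 and 193 FPKM in *CEPDL2ox*. Every *CEPDL2ox* library was above every WT library, by little. The mean was 9.30% higher (184 ± 13.4 against 201 ± 8.26 FPKM), with a log2 fold change of 0.13 (−0.05 to 0.31, adjusted p = 0.36 by limma). It was 0.067 without WT replicate 3, the lowest library, and 0.039 when libraries were scaled to the same summed FPKM.

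*CAT3* (AT1G20620, chr1:7143067-7146540), known for expression in vascular tissue, measured 345, 442 and 284 FPKM in WT and 291, 290.1 and 207 FPKM in *CEPDL2ox*. The groups overlapped, because WT replicate 3 lay below *CEPDL2ox* replicates 1 and 2. The mean was 26.3% lower (357 ± 79.7 against 263 ± 47.9 FPKM), the largest difference among the 10 genes. The log2 fold change was −0.43 (−0.86 to −0.0033, unadjusted p = 0.049, adjusted p = 0.21 by limma).

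The spread of *CAT3* within groups was also the widest of the 10 genes. Its SD on the log2 scale was 0.30, beside 0.09 for the median of the 10 genes and 0.16 for the median of all genes tested. Between 2856 and 7430 reads were estimated to underlie each value, where counting alone gives a coefficient of variation of at most 1.87%. The log2 fold change was −0.27 without WT replicate 2, the highest library, and also without *CEPDL2ox* replicate 3, the lowest.

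*CAT1* (AT1G20630, chr1:7146636-7149977) was the least abundant catalase transcript. It measured 14.7, 15.6 and 13.8 FPKM in WT and 16.1, 13.3 and 18.7 FPKM in *CEPDL2ox*. The *CEPDL2ox* libraries reached both below and above the WT range. The means were 14.7 ± 0.922 and 16.0 ± 2.67 FPKM, with a log2 fold change of 0.11 (−0.20 to 0.41, adjusted p = 0.67 by limma) that was −0.0048 without *CEPDL2ox* replicate 3. The values rested on an estimated 150 to 198 reads per library, where counting alone gives a coefficient of variation of up to 8.16%.

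*NTRA* (AT2G17420, chr2:7564345-7566539) had the lowest adjusted p of the 10 genes. It measured 310.5, 318 and 306 FPKM in WT and 283, 269 and 273 FPKM in *CEPDL2ox*. The groups lay apart, with a gap between the nearest libraries that was wider than the range within either group. The mean was 11.8% lower (312 ± 6.26 against 275 ± 6.92 FPKM), and the log2 fold change was −0.18 (−0.32 to −0.04, unadjusted p = 0.021, adjusted p = 0.14 by limma). Its SD within groups, 0.03 on the log2 scale, was smaller than that of all but 0.536% of the genes tested.

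Changes of this size also appeared in genes often used as references. Their log2 fold changes were −0.25 for *EF1A*, −0.17 for *TUB2*, −0.01 for *ACT2* and 0.21 for *UBQ4*, and 0 of the 4 were called, with adjusted p-values from 0.12 to 0.95 by limma. At an unadjusted p under 0.05 by limma there were 3 of the 4, all but *ACT2*, beside 23.1% of all genes tested. The paper describes the expression of reference genes as stable between these plants.

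*NTRB* (AT4G35460, listed as *NTR1*, chr4:16842188-16844082) was far less abundant than *NTRA* in these roots. It measured 20.0, 20.6 and 20.9 FPKM in WT and 19.6, 20.5 and 22.1 FPKM in *CEPDL2ox*. The groups overlapped. The means were 20.5 ± 0.449 and 20.8 ± 1.27 FPKM, with a log2 fold change of 0.02 (−0.18 to 0.22, adjusted p = 0.93 by limma). This value was −0.07 when libraries were scaled to the same summed FPKM, so no direction is given. Each value rested on an estimated 173 to 205 reads.

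Ratios between related genes within a library, which do not depend on how libraries were scaled, were then compared for 5 pairs. The pairs were chosen after the values were seen and are described without a test. The *CAT3*/*CAT2* ratio was 1.80, 2.31 and 1.69 in WT and 1.39, 1.45 and 1.08 in *CEPDL2ox* replicates 1, 2 and 3. The groups did not overlap, with means of 1.93 ± 0.329 and 1.31 ± 0.202. *CAT3* made up between 60.9% and 68.1% of the summed catalase level in WT and between 49.5% and 57.7% in *CEPDL2ox*, and *CAT2* between 29.5% and 36.1% and between 39.7% and 46.0%. *CAT1* never exceeded 4.45%.

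The *NTRA*/*NTRB* ratio was 15.5, 15.5 and 14.6 in WT and 14.4, 13.1 and 12.3 in *CEPDL2ox*. These groups did not overlap either, and *NTRA* supplied between 92.5% and 93.9% of the summed level of the pair in all 6 libraries. The ratios *GR1*/*GR2*, *CAT3*/*CAT1* and *CAT2*/*CAT1* overlapped between groups. *CEPDL2ox* replicate 3 had the highest *GR1*/*GR2* ratio (4.70) and the lowest *CAT2*/*CAT1* ratio (10.3) of the 6 libraries.

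**Figure D4:**
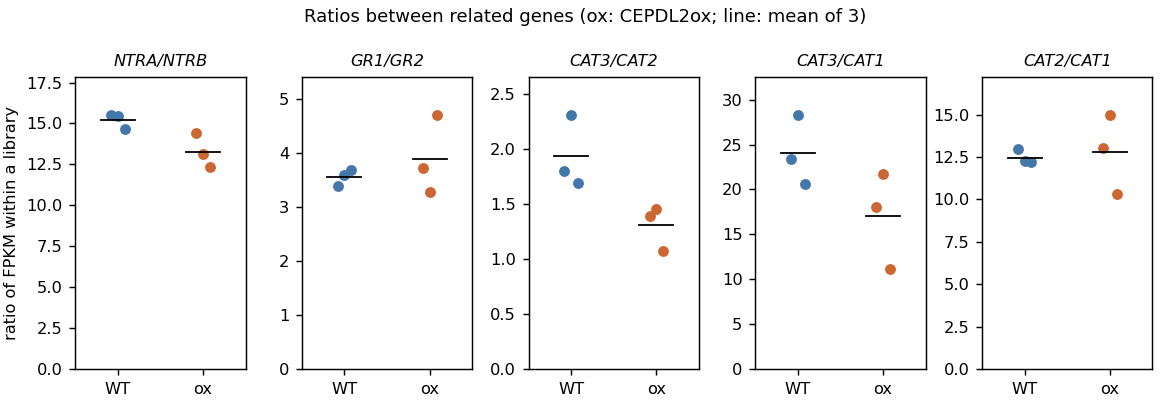
Ratio of FPKM between related genes within each library, for 5 pairs (points, libraries; lines, means of 3; ox, *CEPDL2ox*). The *CAT3*/*CAT2* ratio is at least 1.69 in WT and at most 1.45 in *CEPDL2ox*, the *NTRA*/*NTRB* ratio is at least 14.6 and at most 14.4, and the other 3 ratios overlap.

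The pathways around these enzymes were described with 10 lists of 90 further genes, of which 85 were tested. In *CEPDL2ox*, 2 were higher and 4 lower at an adjusted p under 0.05 (7.06% called, beside 5.72% of all genes tested). At an unadjusted p under 0.05 there were 27 of the 85, beside 23.1% of all genes tested. Log2 fold changes were below 0 in 52 of the 85, with a median of −0.05, beside −0.03 over all genes tested. Counts of signs, here and elsewhere, are not set against the share of all genes below 0. No gene was called among 8 of ascorbate regeneration, 7 superoxide dismutases, 10 thioredoxins of the h and o types, 8 tested peroxiredoxins and 10 tested genes of glutathione turnover and transport.

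The ascorbate peroxidase *APX2* was the clearest gene that rose. It measured 50.0, 53.0 and 48.3 FPKM in WT and 92.2, 74.6 and 86.2 FPKM in *CEPDL2ox*. The groups lay far apart, at means of 50.4 ± 2.40 and 84.3 ± 8.97 FPKM, with a log2 fold change of 0.73 ± 0.09 (SE, adjusted p = 0.0059 by limma). *APX2* encodes a cytosolic isoform like *APX1*, whose interval of −0.18 to 0.17 lies below that of *APX2*, 0.51 to 0.95. *APX2* was the 1 gene called of 7 tested in its list, beside 5.72% of all genes tested. *SAPX*, a plastid and mitochondrial isoform and the most abundant of these 7, measured 112 ± 3.39 and 98.1 ± 15.7 FPKM (log2 fold change −0.20, adjusted p = 0.34 by limma).

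Genes that supply cysteine, the thiol-bearing substrate of GSH1, held 2 calls among 15 tested, both lower. Over all genes tested, 5.72% were called and 2.0% were called lower. *APS4* encodes an ATP sulfurylase, the enzyme that activates sulfate. It measured 297, 383 and 320.5 FPKM in WT and 137, 148 and 107 FPKM in *CEPDL2ox*. Every *CEPDL2ox* library lay far below every WT library, with a log2 fold change of −1.35 ± 0.14 (SE, adjusted p = 0.0023 by limma). *APR3*, an adenosine phosphosulfate reductase that acts at the next step, fell from 91.2 ± 4.36 to 69.3 ± 0.726 FPKM (log2 fold change −0.39 ± 0.07, adjusted p = 0.021 by limma). Log2 fold changes were below 0 in 13 of these 15 genes, and their median was −0.08, beside −0.03 over all genes. *OASA1*, the cytosolic cysteine synthase gene and the most abundant of them by the mean over the 6 libraries, although *APS4* was higher in WT, measured 281 ± 20.0 and 265 ± 10.0 FPKM (adjusted p = 0.57 by limma). The positions of *APS4* and *APR3* in the tables overlap those of AT5G43770 and AT4G21980, and without strand the reads of such genes may be mixed.

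The other calls came from 3 further lists. *GPXL1* (listed as *GPX1*), a plastid glutathione peroxidase-like protein, fell from 43.3 ± 6.11 to 27.6 ± 4.87 FPKM (log2 fold change −0.64 ± 0.15, adjusted p = 0.048 by limma). *GPXL6*, the most abundant of the 7 tested in this list, measured 437 ± 5.69 and 422 ± 20.5 FPKM, and its position overlaps that of AT4G11590. AT5G41670, annotated as a 6-phosphogluconate dehydrogenase family member, whose reaction yields NADPH, rose from 142 ± 12.7 to 212 ± 26.8 FPKM (log2 fold change 0.57 ± 0.11, adjusted p = 0.028 by limma). *CICDH*, the cytosolic isocitrate dehydrogenase gene and the most abundant of the 6 NADPH supply genes, measured 856 ± 32.3 and 745 ± 25.1 FPKM (adjusted p = 0.14 by limma). *GME*, a GDP-mannose epimerase of ascorbate synthesis, fell from 71.6 ± 4.03 to 55.2 ± 0.196 FPKM (log2 fold change −0.37 ± 0.07, adjusted p = 0.029 by limma). Log2 fold changes were below 0 in all 7 genes of ascorbate synthesis, and their median was −0.17, beside −0.03 over all genes. Of these 7, 4 were highest in WT replicate 1, the library with high green tissue markers, and *GME* was at −0.32 without it. The part of that library in the other values was not tested.

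Fewer of these calls were kept whichever library was left out, and an omission also leaves fewer samples. Over all genes, those with an adjusted p under 0.05 by limma fell from 1120 to between 358 and 610. Whether a lost call came from the library or from the smaller number of samples was not tested. Of the 4 genes called lower, *APS4* alone kept its call without WT replicate 1, WT replicate 2 or any of the *CEPDL2ox* libraries, and *APS4* and *APR3* kept theirs without WT replicate 3. Of the 2 called higher, *APX2* kept its call whichever library was left out, and AT5G41670 kept its call only without *CEPDL2ox* replicate 2. *APX2* and *APS4* kept an adjusted p under 0.05 under all 14 alternatives tried, with limma's values from 0.0049 to 0.036 and from 0.0013 to 0.0203.

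Among the genes not called, those next to the 10 enzymes in the pathway are given by the most abundant of each list over the 6 libraries. *DHAR1*, a dehydroascorbate reductase that regenerates ascorbate with glutathione, measured 449 ± 53.4 FPKM in WT and 339.7 ± 25.7 FPKM in *CEPDL2ox* (log2 fold change −0.40, adjusted p = 0.067 by limma), with no overlap. *GGCT2;2*, a gamma-glutamyl cyclotransferase of glutathione breakdown, measured 303 ± 16.1 and 388 ± 36.7 FPKM (0.35, adjusted p = 0.060 by limma), also with no overlap, and its position overlaps that of AT4G31280. The thioredoxin *TRXh3*, a substrate of thioredoxin reductases, had a mean of 1257 FPKM in both groups (adjusted p = 0.99 by limma). *FSD1* (superoxide dismutase), *PRXIIB* (peroxiredoxin) and *VTC1* (ascorbate synthesis) had log2 fold changes of 0.11, 0.06 and −0.17, with adjusted p-values of 0.50, 0.66 and 0.22 by limma.

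In addition, 5 uncalled genes had a log2 fold change beyond 1 in size and are named after their values were seen. *APX4*, *TAPX* and *PRXQ*, whose products lie in chloroplasts, had values of −1.07, −1.17 and −1.13, and WT replicate 1 was 4.12, 1.91 and 2.83 times the mean of the other WT libraries for them. The part of that library in these values was not tested. The position of *APX4* also overlaps that of AT4G09000, and without strand their reads may be mixed. The thioredoxins *TRXh7* and *TRXh8* went in opposite directions, at 1.27 (adjusted p = 0.066 by limma) and −1.05 (adjusted p = 0.057 by limma). *TRXh7* measured 9.85, 5.06 and 3.15 FPKM in WT and 15.8, 11.5 and 17.0 FPKM in *CEPDL2ox*. *TRXh8* measured 29.8, 26.1 and 15.1 FPKM in WT and 10.7, 8.26 and 13.1 FPKM in *CEPDL2ox*. Neither gene overlapped between groups, and as few as 8 reads were estimated for *TRXh7*.

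**Figure D5:**
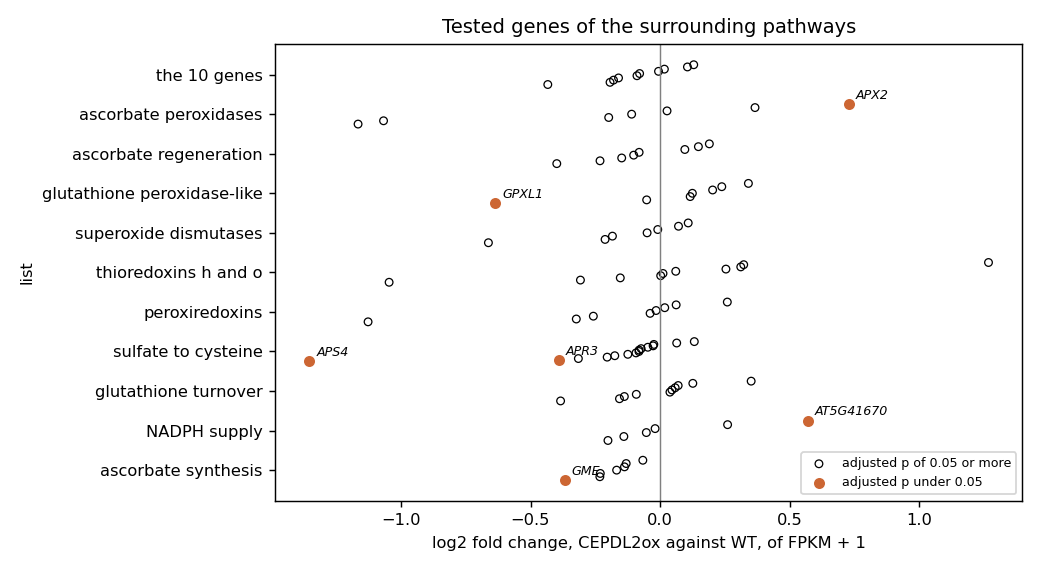
Log2 fold change of FPKM + 1 in *CEPDL2ox* against WT for the 10 genes and the 85 tested genes of the 10 surrounding lists (each point 1 gene; filled points, adjusted p under 0.05 by limma). The 10 genes lie between −0.43 and 0.13, and the 6 filled points are spread over 5 lists, from *APS4* at −1.35 to *APX2* at 0.73.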

How the data were processed

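Root RNA was sequenced by the authors as single-end 75-base reads from unstranded libraries, 3 each of WT and *CEPDL2ox*. Per the labels and the methods, reads were mapped to TAIR10 with a BaseSpace pipeline, and the authors deposited FPKM per gene, 1 table per library. The tool that quantified expression and its version are not given in the sources used here. FPKM hold no counts. Depth was estimated from genes above 0 in 1 library, with transcripts over 600 bases and length less 200 bases taken, and the reads per gene derived from it are estimates. Genes that averaged 1 FPKM or more (19597) were compared on log2(FPKM + 1) with limma 3.58.1 in R 4.3.3 (lmFit, eBayes with trend, genotype as the only term), so fold changes of low genes are understated. On simulated data with normal noise, the fit recovered 72.5% of 200 changed genes at a log2 fold change of 0.5 and 100% at 1. These rates hold for the simulated noise. In the data, 5 pathway genes with a log2 fold change beyond 1 in size were not called. Sequence windows were compared over all TAIR10.1 RefSeq transcripts of each gene with Python 3.11.15 and Biopython 1.88. The 10 genes and the lists were chosen with earlier results of these data known. Named genes are the 10, every list gene with an adjusted p under 0.05, the most abundant of each list, *CEPDL2* and 4 reference genes. *GLDP1*, *GOX1*, *EXPA7* and the 5 uncalled genes with the largest changes fall outside this rule and were named after their values were seen. Alternatives changed the pseudocount, filter, scaling, trend or block, or left out a library.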

Additional observations from a re-analysis of the deposited data

How the results depend on the processing

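None of the 10 genes was called under any of the 14 alternatives, and the lowest adjusted p-values by limma were 0.064 for *CAT3* (with the replicate block) and 0.071 for *NTRA* (same summed FPKM). Signs turned for 4 genes near 0. The log2 fold change of *APX1* was 0.013 with the median of ratios and ranged from −0.031 to 0.030 with a library left out. That of *NTRB* was −0.071 with the same summed FPKM and ranged from −0.029 to 0.054. Those of *GR1* and *CAT1* ranged from −0.12 to 0.0050 and from −0.0048 to 0.22 with a library left out. The cause was not tested.

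Scaling to the same summed FPKM moved the median of all genes from −0.03 to −0.11, and gave 125 genes called lower in place of 83, and 1 higher and 8 lower pathway genes in place of 2 and 4. The median of ratios gave 4 higher pathway genes. Without the intensity trend, 712 in place of 1120 genes had an adjusted p under 0.05, and the pathway calls were 1 higher and 1 lower. With the same summed FPKM the log2 fold changes of *GSH1*, *GSH2*, *GR1*, *GR2*, *NTRA* and *CAT1* were −0.18, −0.25, −0.17, −0.28, −0.27 and 0.020. With a single library left out, which leaves fewer samples, genes called lower ranged from 49 to 77, genes with an adjusted p under 0.05 from 358 to 610, and pathway calls, not always of the same genes, from 1 to 2 higher and from 1 to 3 lower. *GPXL1*, *APR3*, AT5G41670 and *GME* kept an adjusted p under 0.05 in 5, 7, 7 and 6 of the 14 alternatives, over ranges of 0.035 to 0.14, 0.017 to 0.077, 0.023 to 0.10 and 0.018 to 0.10 by limma.

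Deviations of same-numbered libraries from their group means correlated at −0.03, 0.02 and 0.00 across genes. With 3 libraries per group, this cannot show whether libraries of the same number shared a culture or batch. With the replicate number as a block, 840 genes had an adjusted p under 0.05, 0 of the 10 genes were called, and pathway calls were 2 higher and 1 lower. *CAT1* and *NTRB*, with the fewest estimated reads, are the genes for which depth limits a small difference most.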
